A study of Saccharomyces cerevisiae with 14 samples.

Results

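RNA polymerase III makes the small transfer and 5S ribosomal RNAs and a handful of other noncoding RNAs. Of these others, 5 genes were taken by name from the 6431 nuclear genes of the annotation: SCR1, RPR1, SNR6, SNR52 and RNA170. SCR1 encodes the RNA of the signal recognition particle, which brings ribosomes that make secreted proteins to the endoplasmic reticulum. RPR1 encodes the RNA of RNase P, which trims the 5′ ends of tRNAs. SNR6 encodes the U6 RNA of the spliceosome, SNR52 a box C/D snoRNA that guides methylation of ribosomal RNA, and RNA170 a transcript without a known role.

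These genes recruit the polymerase through A and B box elements bound by the factor TFIIIC, which then places TFIIIB upstream of the start. SCR1 carries the boxes inside the gene. RPR1 and SNR52 carry them in an upstream leader that is cut off, and SNR6 has its B box beyond its 3′ end. tRNA genes are compact, heavily transcribed and known obstacles to replication forks, which is why Pol III genes are of interest for damage linked to DNA-RNA hybrids. Sen1 is best known for ending short RNA polymerase II transcripts and has also been reported to act on Pol III.

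Rad52, a recombination protein that gathers at broken DNA, was mapped in budding yeast by chromatin immunoprecipitation and sequencing in 14 libraries of 8 groups. In the strain background labelled 288C, there were 2 libraries of WT, 2 of Sen1-AID and 2 of h1D-h2D. The combined strains, h1D-h2D Sen1-AID on the one hand and h1D-h2D Top1-AID on the other, had 2 each, and Top1-AID had 1. All 11 were treated with auxin at 0.5 µM for 4 h, WT included. AID marks a protein fused to a degron that auxin triggers, and h1D-h2D was read as loss of the RNase H genes RNH1 and RNH201 named in the study's design. The genotype label of the last combined strain names Top1 without AID, and its title names Top1-AID. In the background labelled JKM, Gal-HO cells, which make the HO endonuclease in galactose, were grown with 2% galactose in 2 libraries and with dextrose in 1. The 2 backgrounds differ in strain and in treatment, and these cannot be told apart. No label says that replicates came from separate cultures, so p-values over libraries measure only the spread between these samples, which may be technical.

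The files list peaks only, between 254 and 731 per library, and read depth is unknown. Median peak width lay between 1375.5 and 2258 bp, and the peaks of a library overlapped between 8.85% and 29.6% of nuclear genes. A peak list cannot tell more cells with Rad52 at a site from more Rad52 per cell. The score of a peak is the authors' value on a scale that is not stated, and it is given here as a percentile within its own list. Lists differ in length, so percentiles show no change between libraries.

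A Rad52 peak lay over RPR1 in all 14 libraries, over SNR52 in 12 and over SCR1 in 3. No library had a peak over SNR6 or RNA170. Of all nuclear genes, 3.05% had a peak in every library and 56.9% had none in any. Among the 275 nuclear tRNA genes, the nearest relatives of these genes, 14.9% had a peak in every library and 3.27% in none. So 29 of 70 combinations of gene and library held a peak, and RPR1 and SNR52 supplied 26 of them.

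**Figure D1:**
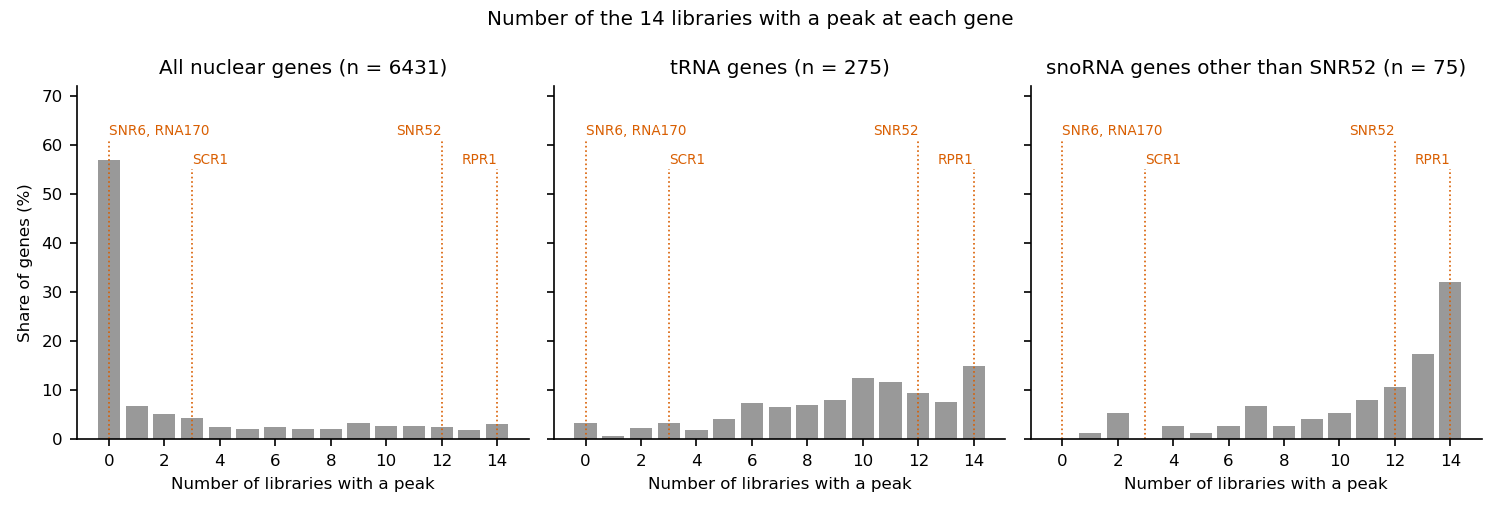
Share of genes (percent, bars) by the number of the 14 libraries with a peak over the gene, for all nuclear genes, tRNA genes and snoRNA genes other than SNR52. Dotted lines mark the Pol III genes: RPR1 at 14 libraries, SNR52 at 12, SCR1 at 3, and SNR6 and RNA170 at 0, where 9 tRNA genes and 0 snoRNA genes lie.

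RPR1 lies at V 117667–118035 on the Crick strand and is 369 bp long. The peak over it was of middling width in 12 libraries, at a width percentile between 31.2 and 54.0 of its list, and wider in the other 2. It spanned V 116976–118665 in WT replicate 1 and V 116981–118591 in WT replicate 2, widths of 1690 and 1611 bp. Sen1-AID had widths of 1681 and 1439 bp, Top1-AID 1639 bp, and the Gal-HO galactose libraries 1431 and 1668 bp. The Gal-HO dextrose library had 1639 bp. These values lie close together. The widths were 2000 and 1626 bp for h1D-h2D, and 1878 and 1411 bp for h1D-h2D Top1-AID. For h1D-h2D Sen1-AID the peak was 3872 and 3306 bp wide, wider than in any other library, at width percentiles of 79.0 and 74.4.

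By score the peak lay at or above the middle of its lists, at a percentile between 50 and 93.6 with a median of 78.5. Its score percentile was 81.8 and 70.8 in WT, 93.6 and 79.1 in Sen1-AID, and 86.4 in Top1-AID. It was 69.9 and 59.2 for h1D-h2D, 78.0 and 83.6 once Sen1 was depleted as well, and 74.1 and 50 once Top1 was. In the Gal-HO libraries it was 57.2 and 83.4 with galactose and 82.1 with dextrose. The percentile exceeded the median of tRNA genes with 1 peak in 14 of 14 libraries, where that median lay between 31.6 and 48.2. Replicates of a group could lie far apart, as the 2 galactose libraries did.

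**Figure D2:**
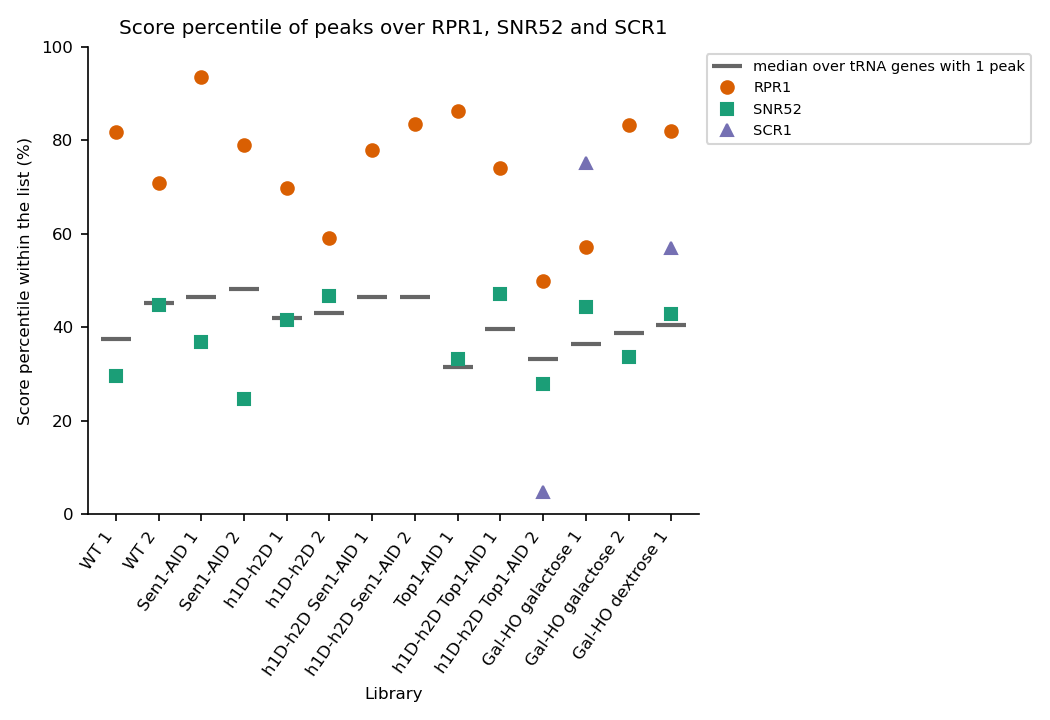
Score percentile within each library's own peak list (percent, vertical axis) of the peak over RPR1 (circles), SNR52 (squares) and SCR1 (triangles), with the median over tRNA genes that have 1 peak (bars), by library. RPR1 lies above the tRNA median in all 14 libraries, SNR52 in 5 of 12 and SCR1 in 2 of 3.

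Position was measured along the strand of the gene, as the reach of the peak past the 5′ end (upstream) and past the 3′ end (downstream), and as the offset of the peak midpoint from the gene midpoint. Upstream reach at RPR1 lay between 387 and 712 bp, with a median of 580.5 bp over the 14 libraries. Downstream reach was 691 and 686 bp in WT, 732 and 672 bp in Sen1-AID, and 689 bp in Top1-AID. It was 1033 and 812 bp for h1D-h2D, and 934 and 655 bp for h1D-h2D Top1-AID. With galactose it was 623 and 654 bp, and with dextrose 653 bp. The h1D-h2D Sen1-AID libraries reached 2791 bp and 2308 bp. The highest value elsewhere was 1033 bp, so these 2 libraries did not overlap with the other 12. The same was seen at 27.9% of the 190 genes with 1 peak in every library, and at 14.6% of the 41 such tRNA genes.

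Downstream of RPR1 the peak ran over protein-coding genes on the opposite strand. TIM9, which encodes a chaperone of mitochondrial protein import, lies 192 bp away and was under the same peak in all 14 libraries. Presence, score and reach given for RPR1 are thus those of a shared peak. Whether the signal belongs to RPR1 or to TIM9 cannot be read from peak limits and was not tested. For h1D-h2D Sen1-AID the offset was 1039.5 and 839.5 bp. Both values exceed the 369 bp length of RPR1, so these peaks were centred outside the gene. The next genes are named after their values were seen. URA3, an enzyme gene of pyrimidine synthesis that is often used as a marker in yeast strains, was reached in 6 libraries: Sen1-AID replicate 1, h1D-h2D Top1-AID replicate 1, and both replicates of h1D-h2D as of h1D-h2D Sen1-AID. That is 5 of 6 libraries without RNase H, 1 of 5 auxin libraries with it, and 0 of 3 Gal-HO libraries. URA3 ends at V 116970. Peaks counted as short of it began at V 116976 and 116981 in WT, 116978 in Top1-AID and 116995 in Sen1-AID replicate 2. The other peaks short of it began between V 117012 and 117044. The peak of Sen1-AID replicate 1, counted as reaching URA3, began at V 116935. So the split depends on the rule of at least 1 bp of overlap. GEA2, which encodes an exchange factor of Golgi transport, was reached in 2 libraries, both of h1D-h2D Sen1-AID. These counts describe genes picked for their values. The split of URA3 by RNase H did not reach an unadjusted p under 0.05, so URA3 is not part of the first share given next. By Fisher's exact test over the 2457 genes with a peak in at least 1 auxin library, 0.0814% of genes had peaks more often without RNase H and 3.54% more often in h1D-h2D Sen1-AID at an unadjusted p under 0.05, and 0% in either case after adjustment. On the upstream side, PXP1 was touched in 6 libraries. The nearest tRNA gene, YNCE0008C, is 13046 bp away.

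**Figure D3:**
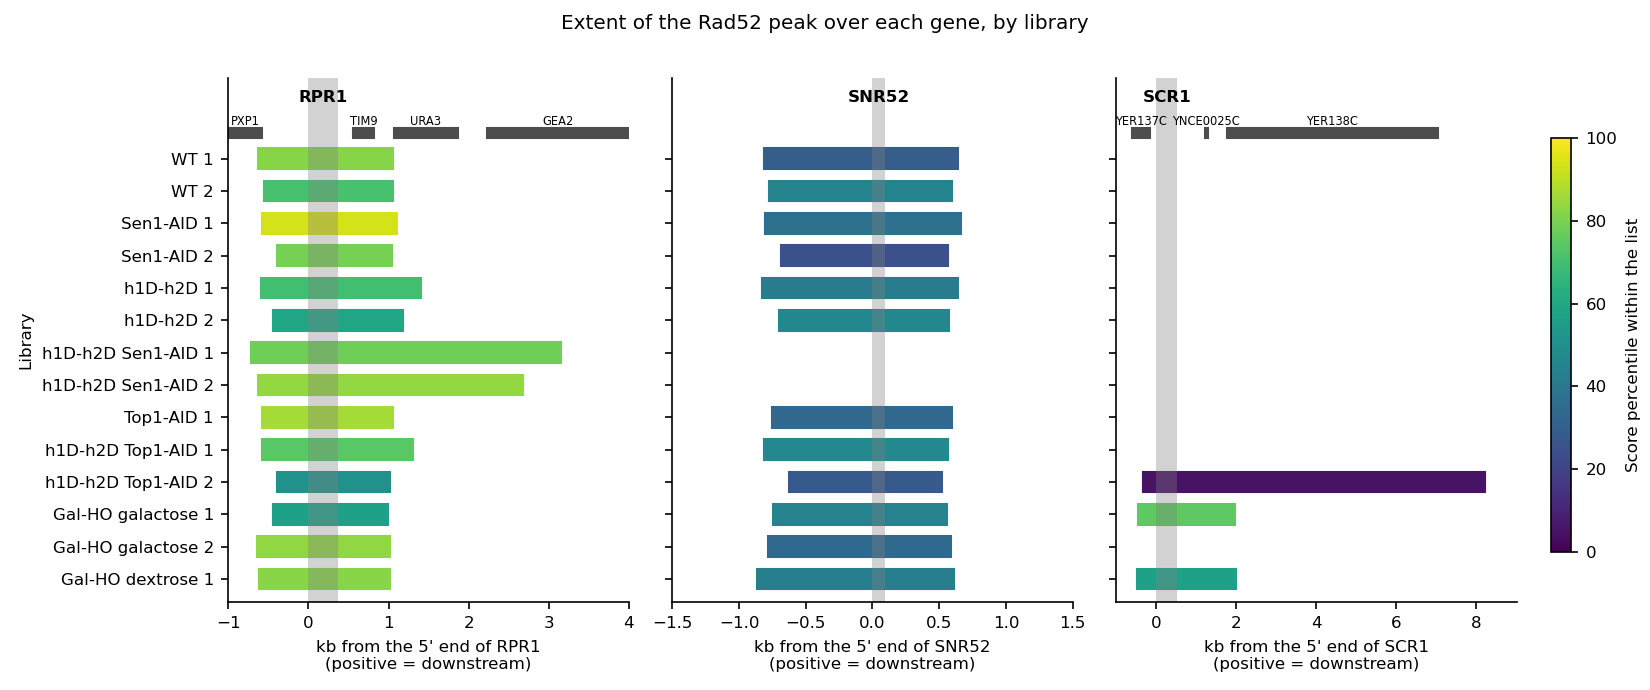
Extent of the peak over RPR1, SNR52 and SCR1 in each library (horizontal bars), in kb from the 5′ end of the gene, positive downstream, coloured by score percentile within the list. The gene is the grey band and neighbours under the same peak are dark boxes. The RPR1 peak extends furthest, 2791 and 2308 bp downstream, in the h1D-h2D Sen1-AID libraries, the SNR52 peak is missing from those 2 libraries, and SCR1 has a peak in 3 libraries.

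Contrasts among the 11 auxin libraries were tested by exact two-sided permutation of library means, per gene, over the 217 genes with exactly 1 peak in each of them. Of the 5 genes, RPR1 alone met that condition. The combined mutants lack RNase H and, by their titles, carry Sen1-AID or Top1-AID. They had a downstream reach of 1672 ± 1039 bp (SD, n = 4) at RPR1, and the other libraries 759 ± 130 bp (n = 7). The difference of 913 bp had an exact permutation p of 0.0455 and an adjusted p of 0.190 over the 217 genes, so it did not pass. In that contrast 0% of genes passed with a higher downstream reach, by the same permutation test, and 4.15% had an unadjusted p under 0.05.

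Sen1-depleted libraries, RNase H or not, had 1626 ± 1085 bp (n = 4) against 786 ± 147 bp (n = 7). The difference of 840 bp had an exact permutation p of 0.0758 and an adjusted p of 0.198, while 22.6% of the 217 genes passed with a higher downstream reach. The 4 values were far apart, since both Sen1-AID libraries lay among the others and both h1D-h2D Sen1-AID libraries above them. Without and with RNase H, values were 1422 ± 895 bp (n = 6) and 694 ± 22.5 bp (n = 5), a difference of 728 bp (exact permutation p 0.0931, adjusted 0.516). In that contrast 0% of genes passed with a higher reach and 1.84% had an unadjusted p under 0.05. All 3 differences rested largely on the 2 h1D-h2D Sen1-AID libraries. Without replicate 1 of that strain, but with replicate 2, they were 540, 452 and 454 bp. With replicate 2 left out instead, the differences for combined mutants and Sen1 depletion were 701 and 613 bp. The h1D-h2D Top1-AID libraries alone had a mean of 794.5 bp, against 759 bp in the libraries outside the combined mutants. Sen1-AID alone had 702 bp against 786 bp without Sen1 depletion, and h1D-h2D alone had 922.5 bp against 694 bp with RNase H.

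A contrast of h1D-h2D Sen1-AID with the other 9 auxin libraries was added after these values were seen. Downstream reach at RPR1 was 2550 ± 342 bp (n = 2) against 767 ± 133 bp (n = 9), a difference of 1782 bp. The exact permutation p was 0.0182, the smallest that 55 arrangements can give, and the adjusted p was 0.0658. No gene, or 0%, passed with a higher downstream reach by this permutation test, and 28.6% had an unadjusted p under 0.05. With so few arrangements a gene can pass only if many others also reach the smallest p. The midpoint offset was 940 ± 141 bp downstream (n = 2) against 120 ± 66.0 bp (n = 9), a difference of 820 bp. Its exact permutation p was again 0.0182, with an adjusted p of 0.0429. A higher offset passed at 28.1% of the 217 genes and a lower one at 14.3%, so RPR1 was one of many. Genes under the same peak count separately in these shares and in the adjustment. The call ended when WT replicate 1 or 2, Sen1-AID replicate 2 or either h1D-h2D replicate was left out. It also ended without Top1-AID or without h1D-h2D Top1-AID replicate 1. In these cases the adjusted exact permutation p was 0.0504 or more. The call ended as well when permutation was kept within replicate number (adjusted 0.0696). Each of these settings leaves fewer arrangements and a smallest p above 0.0182, so the ended calls do not single out a library. With either h1D-h2D Sen1-AID library left out, 1 was left in the group, and no gene could pass.

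The offset was also compared in the other contrasts, where RPR1 did not pass. Combined mutants stood at 548 ± 460 bp (n = 4) against 109 ± 71.1 bp (n = 7), with an exact permutation p of 0.0273 and an adjusted p of 0.0779, while 16.6% of genes passed with a higher offset. Sen1-depleted libraries differed from the rest by 400 bp (exact permutation p 0.0667, adjusted 0.149; 22.6% of genes passed). Libraries without RNase H differed by 360 bp (exact permutation p 0.0390, adjusted 0.339; 0% passed by this test and 5.99% without adjustment). Without h1D-h2D Sen1-AID replicate 1, but with replicate 2, these 3 differences were 275, 227 and 238 bp. With replicate 2 left out instead, those for combined mutants and Sen1 depletion were 342 and 294 bp. The mean offset was 156.75 bp in h1D-h2D Top1-AID alone, against 109 bp outside the combined mutants. It was 106.5 bp in Sen1-AID alone against 123 bp without Sen1 depletion, and 200.5 bp in h1D-h2D alone against 72.5 bp with RNase H.

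Upstream reach at RPR1 showed less in the added contrast. It was 671 ± 58.7 bp (n = 2) in h1D-h2D Sen1-AID and 528 ± 91.8 bp (n = 9) in the other auxin libraries, a difference of 143 bp (exact permutation p 0.0909, adjusted 0.205). The median difference over all 217 genes was -49.2 bp for upstream reach and 103 bp for downstream reach. Width differed by 1925 bp, with an exact permutation p of 0.0182 and an adjusted p of 0.0717. For higher width 0% of genes passed and 26.3% had an unadjusted p under 0.05. In the other contrasts upstream reach differed by 34.6, 40.9 and 8.67 bp and width by 947, 881 and 737 bp, for combined mutants, Sen1 depletion and absence of RNase H in that order. Without h1D-h2D Sen1-AID replicate 1, but with replicate 2, the width differences were 529, 448 and 432 bp. With replicate 2 left out instead, those for combined mutants and Sen1 depletion were 718 and 637 bp. Mean width was 1644.5 bp in h1D-h2D Top1-AID alone, against 1669 bp outside the combined mutants. It was 1560 bp in Sen1-AID alone against 1694 bp without Sen1 depletion, and 1813 bp in h1D-h2D alone against 1612 bp with RNase H. The adjusted exact permutation p over all libraries lay between 0.217 and 0.930. Higher upstream reach passed at 3.23%, 7.37% and 0% of genes, and higher width at 0% in each.

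Whether Sen1 depletion acted differently with and without RNase H was asked of the same values. Sen1 depletion went with 13.5 bp more downstream reach at RPR1 where RNase H was present and with 1627 bp more where it was absent. The difference between these effects was 1614 bp. Its exact permutation p was 0.222, and the smallest p that 36 arrangements allow is 0.0556, so this design cannot pass 0.05.

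The downstream reach was also set beside that of tRNA genes. RPR1 exceeded the tRNA median in 14 of 14 libraries, but it did not exceed the median of all genes or of snoRNA genes in each. In WT, where RPR1 had 691 and 686 bp, the medians were 747 and 664 bp over all genes with 1 peak. Over snoRNA genes they were 943.5 and 845.5 bp. With h1D-h2D Sen1-AID RPR1 lay above both, as the medians were 1225 and 1096 bp over all genes and 1331.5 and 1451 bp over snoRNA genes. In WT the tRNA medians were 630 and 570 bp, and 76 of 229 and 39 of 248 tRNA genes with 1 peak reached further than RPR1. In Sen1-AID it was 106 of 230 and 73 of 222, and in Top1-AID 35 of 171. With h1D-h2D Sen1-AID the tRNA medians were 793 bp and 754 bp, and 11 of 101 and 9 of 122 tRNA genes reached further than RPR1. For h1D-h2D it was 29 of 224 and 18 of 232, and for h1D-h2D Top1-AID 17 of 100 and 16 of 104. With galactose it was 31 of 177 and 50 of 197, and with dextrose 51 of 206. These shares differed between replicates of a group, WT included, and were not tested.

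**Figure D4:**
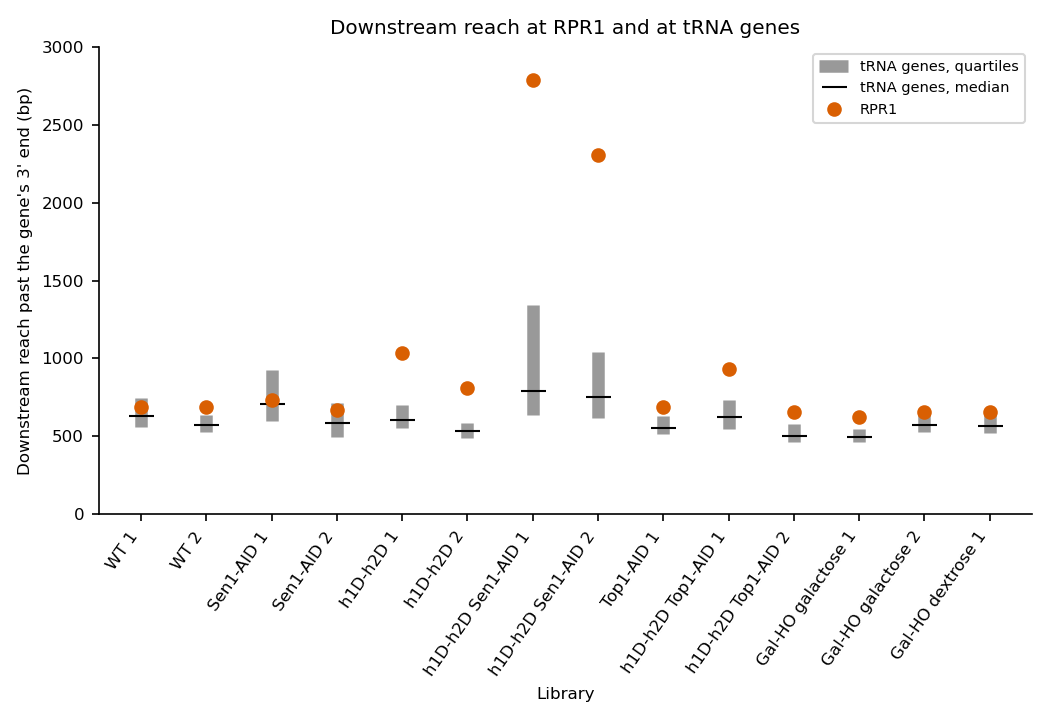
Downstream reach of the peak past the 3′ end (bp, vertical axis) at RPR1 (circles) and at tRNA genes with 1 peak (grey bars for the quartiles, black ticks for the median), by library. RPR1 stands at 2791 and 2308 bp with h1D-h2D Sen1-AID, above the upper tRNA quartiles of 1343 and 1042 bp, and between 623 and 1033 bp in the other 12 libraries.

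By likeness of downstream reach over the 14 libraries, the genes nearest to RPR1 were CTR2, ENO2 and PGK1, out of 188 candidates more than 10 kb away. CTR2, a vacuolar copper transporter gene, and ENO2, an enolase gene of glycolysis, share a peak, and each had a Pearson r of 0.98 and a Spearman rho of 0.84. PGK1, the phosphoglycerate kinase gene, had 0.98 and 0.84. All 3 are RNA polymerase II genes. Other candidates also had a Pearson r of 0.98 after rounding, and the median over the 188 was 0.32, so these 3 do not stand apart. The points share their libraries and peak calling, and the correlation rests on h1D-h2D Sen1-AID: over the other 12 libraries r was 0.48 for CTR2 and ENO2 and 0.56 for PGK1.

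SNR52 lies at V 431129–431220 on the Crick strand and is 92 bp long. Its peak lay in the lower part of each list, at a width percentile between 22.9 and 41.5 and a score percentile between 24.7 and 47.2. Width was 1454 and 1369 bp in WT, 1466 and 1253 bp in Sen1-AID, and 1346 bp in Top1-AID. It was 1470 and 1276 bp for h1D-h2D, and 1383 and 1141 bp for h1D-h2D Top1-AID. The Gal-HO libraries had 1305 and 1375 bp with galactose and 1477 bp with dextrose. The groups overlapped in width, and its SD over the 12 libraries was 103 bp around a mean of 1360 bp.

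Score percentiles at SNR52 were 29.6 and 44.7 in WT, 36.9 and 24.7 in Sen1-AID, and 33.2 in Top1-AID. They were 41.5 and 46.7 for h1D-h2D, and 47.2 and 28.0 for h1D-h2D Top1-AID. The Gal-HO libraries had 44.3 and 33.6 with galactose and 42.9 with dextrose. The value lay above the tRNA median in 5 of 12 libraries, so it stood above and below that median about equally often. No other gene of the annotation shared the peak. The flanking genes, named after their values were seen, are PMD1 at 679 bp and GLC7, the type 1 protein phosphatase gene, at 1274 bp. The nearest tRNA gene, YNCE0021C, is 3320 bp away.

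The peak at SNR52 spanned the whole gene in all 12 libraries that had it and reached further upstream than downstream. Upstream reach was 813 and 774 bp in WT and between 623 and 868 bp over the 12 libraries, with a median of 780 bp. Downstream reach was 549 and 503 bp in WT and between 426 and 571 bp over the 12, with a median of 500 bp. The midpoint offset lay between -175.5 and -98.5 bp, on the upstream side. All 12 upstream values exceeded the tRNA median of their library and all 12 downstream values lay below it. Upstream reach was the longer one in all 12 libraries at 19.3% of the 290 genes with 1 peak in each, and at 5.26% of the 57 such tRNA genes. At RPR1 downstream reach was the longer one in all 14 libraries, as at 34.2% of the 190 genes with 1 peak in each. Upstream minus downstream reach at RPR1 lay between -2079 and -9 bp, with a median of -226 bp, so the lean was slight in some libraries.

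Both h1D-h2D Sen1-AID libraries lacked the SNR52 peak, and the nearest peak there was 32550 and 3223 bp away. All libraries of the other 7 groups had it. The combined mutants had it in 2 of 4 libraries and the others in 7 of 7 (Fisher's exact p 0.109, adjusted 0.292 over the 2457 genes). With every list cut to the length of the shortest, SNR52 had a peak in 2 libraries, both of h1D-h2D Top1-AID, and the difference in share turned from -0.5 to 0.5 (adjusted 0.364). By that test 0% of genes passed after adjustment, and 19.6% were less often present at an unadjusted p under 0.05. The Sen1-depleted libraries had it in 2 of 4 against 7 of 7 as well (Fisher's exact p 0.109, adjusted 0.950). There 0% passed and 0.651% were less often present without adjustment. Libraries without RNase H had it in 4 of 6 and those with it in 5 of 5 (Fisher's exact p 0.455, adjusted 0.791; 0% of genes passed, 0.57% unadjusted), and in the cut lists this difference turned from -0.333 to 0.333.

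For h1D-h2D Sen1-AID against the other 9 libraries, a contrast added after these values were seen, Fisher's exact test gave a p of 0.0182, which is its lower limit here, and 0.260 after adjustment. Of all tested genes, 3.46% had this p or another under 0.05 with fewer peaks, and 0% passed. Peaks in the 12 other libraries and in neither h1D-h2D Sen1-AID library were found at 65 more genes, or with SNR52 at 1.03% of all nuclear genes and at 2.91% of tRNA genes. The h1D-h2D Sen1-AID lists held 286 and 305 peaks. SNR52 ranked below place 305 in 9 of the 12 libraries that had it, at 470 and 342 in WT and at 372 and 309 in h1D-h2D. It stood at places 150 and 184 in h1D-h2D Top1-AID, whose lists of 282 and 254 peaks were shorter still. In lists cut to 254 peaks, the 2 h1D-h2D Top1-AID libraries alone kept the SNR52 peak, and both WT libraries lost it too. The part of list length in the loss was not tested further.

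SCR1 lies at V 441987–442508 on the Watson strand and is 522 bp long. It had no peak in 10 of the 11 auxin libraries, both of WT included. A peak was present in Gal-HO galactose replicate 1 (V 441539–443957, percentile 75.2) and in Gal-HO dextrose (V 441504–443970, percentile 57.0), and absent from Gal-HO galactose replicate 2. The 2 replicates with galactose thus differed, and the dextrose library had the peak, so presence did not separate galactose from dextrose. In the galactose replicate without it the nearest peak lay 5666 bp upstream, and in both WT libraries 5570 and 5626 bp upstream.

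The peak at SCR1 was not centred on the gene. In the 2 Gal-HO libraries the midpoint offset was 500.5 and 489.5 bp, on the downstream side. It covered the tRNA gene YNCE0025C (V 443202–443275), which begins 693 bp past SCR1, and the last 202 and 215 bp of YER138C, a Gag-Pol gene of the Ty1 retrotransposon. YER137C on the upstream side was under it too. SCR1 and these 3 neighbours had peaks in the same 3 libraries, a pattern that no other gene had and that made up 0.0622% of nuclear genes. So a signal at SCR1 itself cannot be told apart from one at the tRNA gene. A peak in at least 2 Gal-HO libraries and in at most 1 auxin library was seen at 4.77% of nuclear genes.

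The third peak over SCR1, in h1D-h2D Top1-AID replicate 2, was of another kind. It spanned 8533 bp (V 441658–450190), the widest peak of that list, and had a score percentile of 4.72. It ran over the whole of YER138C. Replicate 1 of that strain had no peak within 9952 bp of SCR1. Presence in 1 of 4 combined mutant libraries against 0 of 7 others did not pass Fisher's exact test (p 0.364, adjusted 0.611, with 0% of genes passing for more frequent peaks and 0.285% without adjustment).

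SNR6 (XII 366235–366346, Watson strand, 112 bp) had no peak in any library. In 12 libraries the nearest peak lay downstream, between 1416 and 2480 bp away. It was the peak that covered AHP1 and CCW12, named here after their values were seen. AHP1 encodes a thioredoxin peroxidase and CCW12 an abundant cell wall protein, and both had a peak in 12 libraries. In h1D-h2D Top1-AID that peak was missing, and the nearest one lay 110442 and 81934 bp upstream. SNR6 itself was outside the peak in each case. RNA170 (XIII 667288–667456, Crick strand, 169 bp) had no peak in any library either, and its nearest one was between 3706 and 30332 bp away. The nearest tRNA genes are YNCL0007W at 8008 bp from SNR6 and YNCM0033C at 80435 bp from RNA170. The genes that flank RNA170, again named after their values were seen, are RAD14 for nucleotide excision repair and ERG2 for ergosterol synthesis, and neither had a peak.

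The proteins that work with these RNAs were listed as a comparison, by the number of libraries with a peak over the gene. Of 16 Pol III subunit genes, 11 had no peak in any library. RPC17 had one in 14, RPC19 in 2, RPC34 in 2, and RPC10 and 1 other subunit gene in 1 each. Of 14 genes for Pol III factors and regulators, 12 had none, TFC3, which encodes the B box binding subunit of TFIIIC, had 11, and NHP6A had 4. Of 6 protein genes of the signal recognition particle, SRP68 alone had a peak, in 1 library. Of 9 protein genes of RNase P, 5 had none, and POP6 had 9, POP1 and POP3 5 each and RPR2 4. Of 8 genes for U6 partners, 4 had none, and LSM5 had 5, LSM7 4, LSM2 3 and LSM6 3. For all nuclear genes, 56.9% had none.

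Among RNA polymerase II counterparts of these RNAs, 5 in all, coverage ranged from 1 to 14 libraries. NME1, which encodes the RNA of RNase MRP, an enzyme related to RNase P, had a peak in 14 libraries, like RPR1. Of the spliceosomal RNAs, LSR1 (U2) had one in 13 libraries, SNR19 (U1) in 11 and SNR14 (U4) in 9, while SNR6 (U6) had 0. TLC1, the RNA of telomerase, had one in 1 library. The other snoRNA genes, 75 in all, had peaks in a median of 12 libraries, the number SNR52 had. No test between these lists was made.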

How the data were processed

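Peaks were called by the authors with Bowtie2 and MACS2 on genome build sacCer3, per the submitters' processing notes, which give no versions or settings. Whether a control library was used is not given in the sources used here. Each deposited file lists the peaks of 1 library with a score per peak, and the smallest score was 50.02. Peak start and end, the other deposited values, were converted to 1-based positions. Of 7181 deposited peaks, 7176 nuclear peaks were used. Gene positions came from the RefSeq R64 table, and strand from the systematic names. A gene was covered where a peak overlapped it by at least 1 bp. Tests were exact permutation tests of library means and Fisher's exact tests, with Benjamini-Hochberg adjustment over all genes tested and a threshold of 0.05, in Python 3.11.15 with scipy 1.17.1. They were tested on simulated data in which genes varied independently, unlike real genes that share a peak. The genes and comparison lists were chosen with earlier results of these data known. Neighbours under the same peak in at least 50% of the libraries with one, the nearest tRNA gene, at most 4 genes per list and the 3 genes most alike in downstream reach are named. Of the 6 RNA polymerase II counterparts, 5 were found by symbol. Read depth is unknown. Alternatives were a score limit, lists of equal length, joined peaks, a larger overlap, outer limits of several peaks, each library left out and a replicate block.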

Additional observations from a re-analysis of the deposited data

Results flagged for a closer look

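Over 48 sets of values, formed from the libraries compared at RPR1 and SNR52, 1 held a library apart from the rest, where chance alone sets 5% of sets apart. It was the downstream reach at RPR1 in the 7 auxin libraries outside the combined mutants. There h1D-h2D replicate 1 reached 1033 bp, and the next value was 812 bp, in h1D-h2D replicate 2. The sets share libraries.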

How the results depend on the processing

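The 29 combinations of gene and library with a peak became 17 at or above the pooled median score and 18 after cutting each list to the 254 peaks of highest score. RPR1 then had a peak in 12 and 14 libraries, SNR52 in 3 and 2, SCR1 in 2 and 2, and SNR6 and RNA170 in 0. The 2 libraries that had SNR52 in the shortened lists were those of h1D-h2D Top1-AID. With them the difference in its presence reversed to 0.5 for the combined mutants and to 0.333 for libraries without RNase H, in both cases without passing. The median score percentile of RPR1, 78.5, was 56.0 at the score limit and 56.7 in shortened lists, where it ranks among fewer peaks. The difference in the number of these genes covered, galactose minus dextrose, went from -0.5 to 0.5 in shortened lists. Joined peaks, coverage of at least 50% of the gene and outer limits of peaks changed no count of calls. With the replicate block, the call on the RPR1 midpoint offset in h1D-h2D Sen1-AID ended (0 calls, adjusted exact permutation p 0.0696), and leaving out a library in turn gave 0 to 1 calls. Both settings leave fewer arrangements in that contrast, and so a higher smallest p. The block changed no other call. Replicate numbers are not shown to pair libraries: deviations in downstream reach correlated between groups at r from -0.13 to 0.67, above 0.1 in 5 of 10 pairs. At RPR1, however, reach and width were higher in replicate 1 in 5 of 5 auxin groups, and at SNR52 in 4 of 4, so a shared source of same-numbered libraries was not settled. Read depth is unknown, so absence of a peak is not absence of Rad52.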
